A study of Xenopus laevis with 6 samples.

Results

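The genes described here are ATP6, ATP8, COX1, COX2, COX3 and CYTB, which lie on the small circular genome inside the mitochondria of the African clawed frog Xenopus laevis. They were taken by name from the rows that the deposited mRNA table places on chromosome MT, and they make up 6 of the 31598 genes of that table. The exposed frogs had lived with 100 µg/L of the triazine herbicide atrazine over 180 days from postnatal day 13. The control frogs received none. Each group held 3 testis libraries, all taken at postnatal day 193. The labels name neither strain nor vehicle, and they leave unsaid whether a library came from 1 animal or from several. The p-values therefore measure only the spread between libraries.

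Mitochondrial DNA encodes a small core of the respiratory chain and of the ATP synthase, while the nucleus supplies the other subunits. COX1, COX2 and COX3 form the catalytic core of complex IV, cytochrome c oxidase, which passes electrons to oxygen. CYTB encodes cytochrome b, the single mitochondrially encoded subunit of complex III, which hands electrons on to cytochrome c, and ATP6 and ATP8 sit in the membrane part of complex V, the ATP synthase. In vertebrates the genes of a strand are copied together as a long transcript, which is then cut into single messages, so levels of single genes depend on processing and stability as well as on transcription. In mammals ATP8 and ATP6 have overlapping reading frames and stay together on a shared message.

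Levels are in FPKM, a level scaled to length and library size, as deposited. The sources used here do not state which length was used, and the short ATP8 row converted unlike longer rows, as given below. Beside each FPKM the authors deposited a signal headed as counts, which behaves as reads divided by 1 factor per library. Dividing by the value of 1 read gave an estimated 7360633 reads in atrazine replicate 3, the shallowest library, and 13784688 to 17018688 in the other libraries. Every mitochondrial row above 0 came out as a whole number of reads in every library, within 0.02 reads or a tolerance that widened with large values. For COX1 that tolerance was so wide that the check could not fail, so it cannot decide there. For COX2 and COX3 it was loose. PCR copies cannot be told from separate molecules, so intervals on reads cover counting error only. Marker rows of testis were present, with dazl.L, a germ cell gene, at 455 ± 9.43 FPKM in exposed testes against 471 ± 14.1 FPKM in unexposed ones (SD, n = 3). The gene of testis determination dmrt1.L stood at 141 ± 8.12 FPKM in exposed testes against 137 ± 2.64 FPKM in unexposed ones (SD, n = 3).

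The 6 genes differed widely in level. COX1 stood highest, ATP8, COX2 and COX3 formed a middle group, ATP6 lay well below them, and CYTB lay lowest by far. Over all 6 libraries COX1 averaged 2582 ± 136 FPKM, ATP8 1453 ± 205 FPKM, COX2 1427 ± 85.9 FPKM and COX3 1393 ± 99.1 FPKM (SD, n = 6). ATP6 averaged 229.9 ± 35.2 FPKM and CYTB 1.87 ± 0.725 FPKM (SD, n = 6). COX1 exceeded ATP8 in 6 of 6 libraries, by 1.55-fold to 2.17-fold. Within the middle group the order was not stable, since ATP8 exceeded COX2 in 3 of 6 libraries and COX2 exceeded COX3 in 3 of 6. COX3 was 4.49-fold to 8.12-fold above ATP6, and ATP6 was 85.2-fold to 194-fold above CYTB, in all 6 libraries. By mean FPKM, COX1 ranked 5 among all 31598 rows, and by mean signal, which is not divided by length, it ranked 1.

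The low listed level of CYTB was part of a step along the genome. In gene order the chromosome runs ND1, ND2, COX1, COX2, ATP8, ATP6, COX3, ND3, ND4L, ND4, ND5, ND6 and CYTB, where the ND genes encode subunits of complex I, the NADH dehydrogenase. All 8 genes from ND1 to ND3 had at least 123 FPKM in every library. None of the 5 genes from ND4L to CYTB exceeded 47.9 FPKM in any library. The 8 genes took 99.74%, 99.85% and 99.85% of the mitochondrial reads after exposure, against 99.69%, 99.83% and 99.52% without it. The 5 genes from ND4L onward had 224, 125 and 69 reads in the atrazine libraries against 321, 157 and 396 in the controls. Those reads are not scaled to depth, and atrazine replicate 3 was the shallowest library. As a share of the mitochondrial reads they were 0.258%, 0.149% and 0.154% in atrazine and 0.314%, 0.170% and 0.479% in control. In control replicate 3, 251 of the 396 reads fell to ND4. The step was present in both groups and in every library. ND4L was listed at 0 in all libraries. ND4, whose deposited span from 11974 to 13647 is shared with ND4L, was listed at 0.0549, 0.260 and 0 FPKM in atrazine and at 0, 0.0479 and 14.7 FPKM in control. It had 6 reads over the atrazine libraries together, 251 reads in control replicate 3 and 1 read in control replicate 2. ND5 had 0.931, 0.613 and 0.875 FPKM in atrazine and 0.520, 0.493 and 2.15 FPKM in control, highest in the same control library. ND6, the single gene of the set on the minus strand, had 31.8, 14.6 and 13.8 FPKM in atrazine and 47.9, 19.9 and 16.5 FPKM in control, and shares the span from 13855 to 16177 with ND5. The sources used here do not state which mitochondrial reference and annotation were used, whether the counting used strand, or how reads that also match nuclear copies of mitochondrial DNA were treated. The part of any of these in the low rows was not tested.

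**Figure D1:**
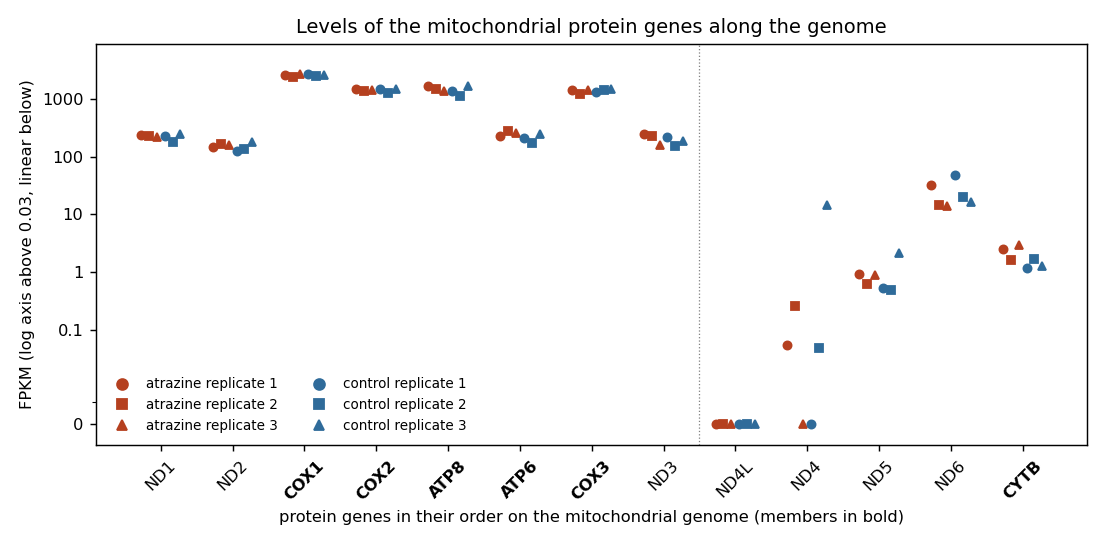
FPKM (log axis above 0.03) of the 13 mitochondrial protein genes in genome order, with 1 marker per library, atrazine libraries left of control libraries. The 8 genes left of the dotted line lie between 123 and 2713 FPKM, and the 5 genes right of it lie between 0 and 47.9 FPKM in both groups.

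The 3 genes of complex IV overlapped between the groups, with mean differences under 0.05 on the log2 scale. COX1, at positions 7397 to 8951 of the mitochondrial chromosome, encodes the subunit that holds the site where oxygen is reduced. It had 2608, 2364 and 2707 FPKM in the atrazine libraries, against 2713, 2483 and 2618 FPKM in the controls. The groups overlapped, with the lowest value in atrazine replicate 2 and the highest in control replicate 1. COX2, at 9109 to 9796, encodes the subunit that takes electrons from cytochrome c. It had 1482, 1370.04 and 1430.3 FPKM in atrazine and 1513, 1285 and 1482 FPKM in control, where replicates 1 and 2 were the extremes of the 6 libraries. COX3 encodes a core subunit without metal centres and had 1439, 1229.6 and 1449 FPKM in atrazine and 1325, 1411 and 1503 FPKM in control. Its lowest value lay in atrazine replicate 2, as for COX1. Taken as atrazine minus control on log2(FPKM + 1), the differences were -0.027 ± 0.12 for COX1, 0.0039 ± 0.12 for COX2 and -0.044 ± 0.13 for COX3 (SE). In fold terms the 95% limma intervals ran from 0.806 to 1.20 for COX1, from 0.826 to 1.22 for COX2 and from 0.794 to 1.18 for COX3. None passed the test, with limma adjusted p of 0.920 to 0.992. The sign of these small differences depended on the scaling, as COX1 and COX3 were at 0.021 and 0.0034 when FPKM were scaled to the rows off chromosome MT, and COX2 was at -0.048 with median-of-ratios scaling. It also turned with 1 library, as COX1 and COX3 were at 0.030 and 0.033 without atrazine replicate 2. COX1 was at 0.0033 without control replicate 1 and COX3 at 0.0014 without control replicate 3. COX2 was at -0.023 without atrazine replicate 1 and at -0.070 without control replicate 2.

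The genes of complex V lay higher in atrazine on average, without passing the test. ATP6 encodes the subunit through which protons cross the membrane, and ATP8 a short subunit of the same part. ATP6 had 226, 274 and 253 FPKM in the atrazine libraries, against 209.8, 174 and 242 FPKM in the controls. Atrazine replicate 2 was highest and control replicate 2 lowest, and control replicate 3 lay above atrazine replicate 1. The ATP6 difference was 0.28 ± 0.15 on the log2(FPKM + 1) scale (SE), with a limma interval of 0.960-fold to 1.53-fold and an adjusted p of 0.693. ATP8 had 1684, 1484 and 1380.1 FPKM in atrazine and 1362, 1142 and 1668 FPKM in control. Its groups overlapped widely, as control replicate 3 nearly matched the highest atrazine library, and the log2 difference was 0.14 ± 0.16 (SE, limma adjusted p of 0.799). That difference was 0.059 when atrazine replicate 1 was left out, and it was 0.0033 or 0.28 when control replicate 2 or control replicate 3 was left out.

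The FPKM of ATP8 rests on few reads. It had 515, 463 and 217 reads in the atrazine libraries, against 493, 334 and 429 reads in the controls. COX2, whose FPKM fell in the same range, had 11500, 11234 and 5644 reads in atrazine and 13679, 11283 and 10694 reads in control. In ATP8 1 FPKM stood for 0.246 to 0.301 signal units, whereas in COX1 it stood for 20.1 to 20.2 and in ATP6 for 7.28 to 7.45. The conversion also differed between libraries for ATP8, at 0.298, 0.287 and 0.301 in atrazine and 0.301, 0.246 and 0.264 in control. The ratio of group means for ATP8 was accordingly 1.19 by signal and 1.09 by FPKM, while for COX1 it was 0.988 and 0.983. By signal the order of the members was COX1, COX3, COX2, ATP6, ATP8 and CYTB, so the place of ATP8 in the middle group came with the conversion to FPKM.

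**Figure D2:**
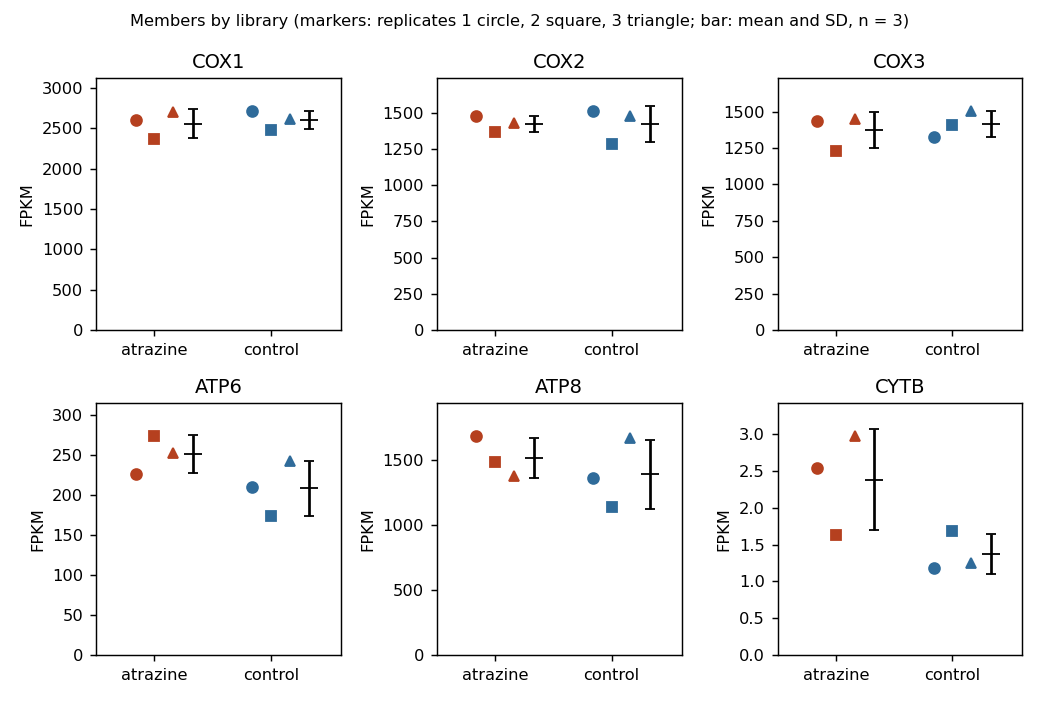
FPKM of the 6 members, 1 marker per library and a bar for the mean and SD of each group (n = 3). The groups overlap in every panel, and CYTB, at 1.18 to 2.97 FPKM, lies far below the other members.

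CYTB, at 16249 to 17457, was the member with the largest fold difference and the fewest reads. It had 2.54, 1.62 and 2.97 FPKM in the atrazine libraries, against 1.18, 1.68 and 1.25 FPKM in the controls. Atrazine replicates 1 and 3 lay above all controls, while atrazine replicate 2 lay below control replicate 2. Those values stood for 37, 25 and 22 reads in atrazine and 20, 28 and 17 reads in control. The exact 95% Poisson interval for the 22 reads of atrazine replicate 3 was 13.8 to 33.3. For the 17 reads of control replicate 3 it was 9.90 to 27.2. These intervals are not scaled to depth, at 7360633 and 13784688 estimated reads, so their overlap does not compare levels. Pooled by group, CYTB had 84 reads in atrazine and 65 in control, and the intervals scaled to depth did not overlap, higher in atrazine. Those of COX1 did not overlap either, lower in atrazine. Such intervals leave out the spread between libraries. The CYTB difference was 0.50 ± 0.19 on the log2(FPKM + 1) scale (SE), which understates changes at this level. The ratio of mean FPKM was 1.74. With limma the unadjusted p was 0.0288 and the p adjusted over all rows was 0.693, so CYTB did not pass. Over the alternatives described in the closing section its log2 difference ran from 0.37 to 0.75, higher in atrazine in each of them, and its smallest adjusted p was 0.305.

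Over the 6 members none passed the limma test after adjustment over all 23824 rows tested, 1 had an unadjusted p under 0.05, and 4 were higher and 2 lower in atrazine. Across the whole table limma called 0 rows (0%), with 1410 rows (5.92%) at an unadjusted p under 0.05, so the members' count lay beside a background without calls. In none of the 6 members were the groups free of overlap, which held for 11.3% of all rows tested. The median log2 difference was 0.070 over the members and 0.040 over all rows, of which 13659 were higher and 10165 lower. All 6 members passed the filter on low values, CYTB through both groups. Of the ND rows 5 were tested, with log2 differences of 0.092 for ND1, 0.12 for ND2, 0.16 for ND3, -0.097 for ND5 and -0.41 for ND6, and limma adjusted p of 0.761 to 0.921. ND4 and ND4L did not pass the filter. These differences moved with single libraries. ND1 was at -0.055 or 0.20 when control replicate 2 or 3 was left out, and at 0.056 without atrazine replicate 1. ND2 was at 0.0016 without control replicate 1 and 0.26 without control replicate 3. ND3 was at 0.0084 without control replicate 2, 0.035 and 0.090 without atrazine replicates 1 and 2, 0.35 without atrazine replicate 3 and 0.29 without control replicate 1. ND5 was at 0.26 without control replicate 3 and between -0.28 and -0.018 without any other library. ND6 was at 0.039 without control replicate 1 and between -0.78 and -0.21 without any other.

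**Figure D3:**
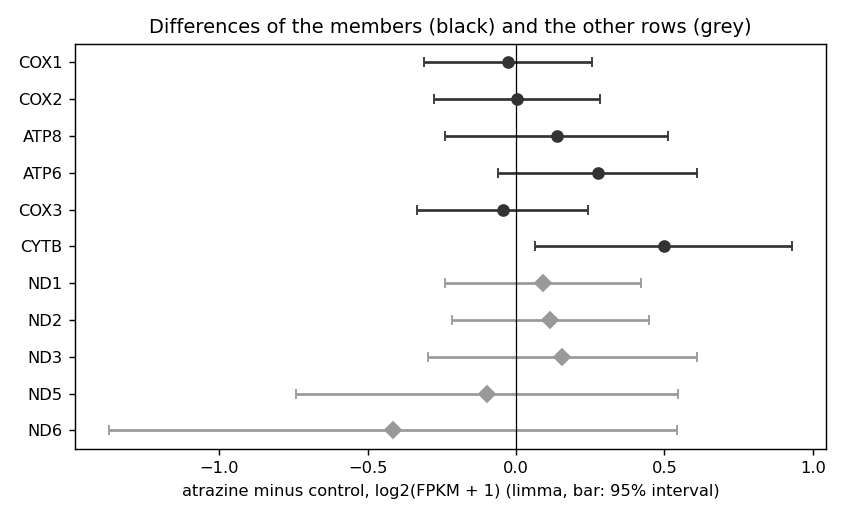
Difference of each tested mitochondrial row, atrazine minus control, in log2(FPKM + 1), with 95% limma intervals. COX1, COX2 and COX3 sit at -0.027, 0.0039 and -0.044, the intervals of all rows but CYTB include 0, and no row passed after adjustment.

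As a share of the transcriptome the members overlapped between the groups. They took 1.26%, 1.16% and 1.26% of the summed FPKM in the atrazine libraries, against 1.18%, 1.07% and 1.28% in the controls, with means of 1.23% ± 0.0546 in atrazine and 1.17% ± 0.103 in control (SD, n = 3). The difference of 0.0519 percentage points was -0.000145 and 0.103 when control replicate 2 or 3 was left out, 0.0834 when atrazine replicate 2 was, and -0.000732 when shares were taken of the deposited signal. The FPKM share leans on ATP8, whose level came with the conversion to FPKM. ATP8 averaged 1516 FPKM in atrazine and 1391 in control, within members' sums averaging 7129 and 7045 FPKM. That gap in ATP8 exceeds the 84.0 FPKM between the sums. Of the members' reads ATP8 took only 0.581% in atrazine and 0.485% in control on average. In estimated reads the members took 0.558%, 0.505% and 0.574% in atrazine and 0.565%, 0.517% and 0.558% in control. The exact 95% binomial intervals were narrow, for example 0.502% to 0.509% in atrazine replicate 2 and 0.514% to 0.521% in control replicate 2. In each group replicate 2 had the lowest share, and the labels state no pairing of the numbers. In bulk tissue fewer cells rich in mitochondria and less mitochondrial RNA per cell cannot be told apart. The spread between libraries was well above counting error for the abundant members. COX1 had a coefficient of variation of 6.89% in atrazine, where the counting error was 0.472%, and of 4.44% in control, where it was 0.412%. COX2 had 3.91% in atrazine, with a counting error of 1.03%, and 8.68% in control, with one of 0.917%. For CYTB the spread was 28.9% in atrazine, with a counting error of 18.9%, and 20.02% in control, with one of 21.5%.

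In the makeup of the mitochondrial message pool the groups overlapped for the abundant members, while the ratio of COX1 to CYTB lay apart. Of the members' reads COX1 took 66.8%, 66.8% and 67.8% in atrazine and 68.6%, 68.05% and 66.6% in control. The FPKM ratio of COX2 to COX1 was 0.568, 0.579 and 0.528 in atrazine and 0.557, 0.517 and 0.566 in control. That of COX3 to COX1 was 0.552, 0.520 and 0.535 in atrazine and 0.488, 0.568 and 0.574 in control. Both ratios overlapped between the groups, and the lowest and the highest ratio of COX3 to COX1 were both in controls. The FPKM ratio of COX1 to CYTB was 1026, 1455 and 911 in atrazine and 2306, 1476 and 2102 in control, without overlap. Replicate 2 of atrazine and replicate 2 of control nearly met. This ratio rests on the few reads of CYTB and was not tested.

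ATP8, ATP6 and COX3 follow one another directly, and the deposited table gives them a joint span from 9873 to 11491. The signal summed over the span was 15015, 13418 and 15213 in the atrazine libraries, against 13736, 13889 and 15418 in the controls. Within the span ATP6 took 11.2%, 15.2% and 12.4% of the reads in atrazine and 11.3%, 9.11% and 11.5% in control. Atrazine replicate 2 had the largest share and control replicate 2 the smallest, while the other 4 libraries lay between 11.2% and 12.4%. ATP8 took 3.34%, 3.18% and 2.73% in atrazine and 2.99%, 2.02% and 2.86% in control, again with the smallest share in control replicate 2. COX3 took the rest, 85.4%, 81.6% and 84.9% in atrazine and 85.7%, 88.9% and 85.6% in control. The sources used here do not state how reads were assigned where the genes overlap, so shifts between neighbours within the span are less certain than its sum. Without control replicate 2 the log2 difference of ATP6 was 0.15, while without atrazine replicate 2 it was 0.21.

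**Figure D4:**
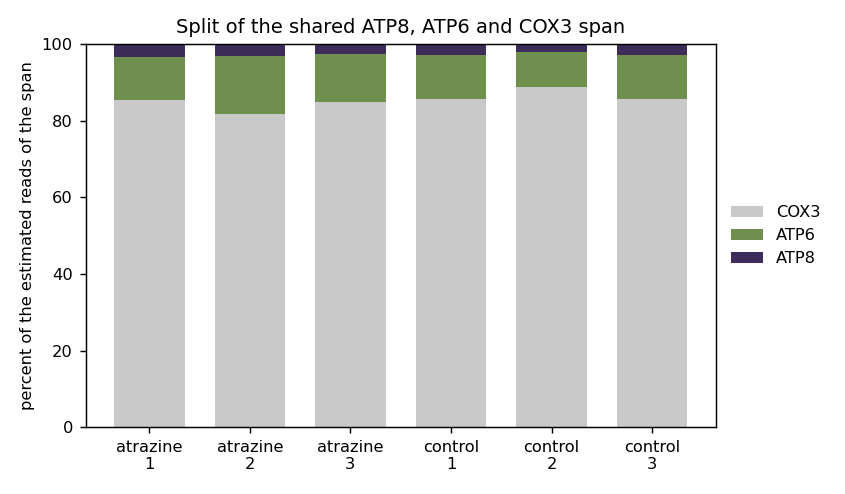
Percent of the estimated reads of the shared span that fell to ATP8, ATP6 and COX3, 1 bar per library, atrazine left of control. ATP6 ranges from 9.11% in control replicate 2 to 15.2% in atrazine replicate 2, and COX3 holds 81.6% to 88.9%.

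The nuclear partners were examined with 9 lists of genes. They concern the complexes the members belong to and the machinery that copies, cuts and translates mitochondrial RNA. Only part of the listed symbols matched a row, from 6 of 20 for translation and membrane insertion to 17 of 20 for mitochondrial mass. For DNA transcription and replication 12 of 26 matched, and for RNA processing and stability 14 of 30. The counts below describe the matched rows alone. Over the 125 rows tested 67 were higher and 58 lower in atrazine, and none passed in limma over all rows (background 0%). Of these 125 rows 8 had an unadjusted limma p under 0.05, which held for 5.92% of all rows tested. The groups did not overlap in 14 of them (11.2%), against 11.3% of all rows. The smallest adjusted p among them was 0.693. The lists of structural subunits leaned lower and those of the DNA and RNA machinery leaned higher, as counts and medians without a test. The summed FPKM of complex IV did not lean lower. The median was 0.040 over all rows and -0.089 over the 759 rows with a mean of at least 100 FPKM. Xenopus laevis carries paired copies of many nuclear genes on its L and S chromosomes, called homeologs.

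Of the nuclear subunits of complex III, the partners of CYTB, 1 row was higher and 9 were lower, with a median log2 difference of -0.19. The small subunit gene uqcrq.S had 409.5, 378 and 461 FPKM in atrazine and 492, 704 and 581 FPKM in control, a log2 difference of -0.50 (limma adjusted p of 0.693). That row covers 530 to 703 of an unplaced sequence, so it can miss other parts of that gene. The conversion from signal to FPKM in so short a row was not examined. The core subunit gene uqcrc2.L was on the higher side at 0.20 (limma adjusted p of 0.761). The summed FPKM of the list lay between 1068 and 1133 in atrazine and between 1185 and 1500.2 in control. Those sums did not overlap between the groups. The uqcrq.S row above was the most abundant of the list and adds much to them, and sums without it are not given here. A further uqcrq.S row, at a log2 difference of -0.42, counts as a separate row. Row by row the groups were apart in 2 of 10 (20%), against 11.3% of all rows. The median of the list was -0.11 without control replicate 2 and -0.12 without atrazine replicate 2.

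Among nuclear subunits of complex IV, partners of COX1 to COX3, 6 rows were higher and 12 lower (median -0.12, or -0.037 without atrazine replicate 3). Their summed FPKM overlapped, at 3086 to 3815 in atrazine and 2791 to 3496 in control. Relative to the average of the 6 libraries, their mean log2 level was 0.038, 0.14 and -0.36 in atrazine. In control it was -0.011, 0.035 and 0.16. The row of cox6b1.L, a subunit at the outer face of the enzyme, had 216, 204 and 194 FPKM in atrazine and 191, 179 and 183 FPKM in control (limma adjusted p of 0.698). Its homeolog cox6b1.S had 82.7, 105 and 94.2 FPKM in atrazine and 116, 118 and 129.99 FPKM in control. The groups did not overlap in either copy and the copies leaned opposite ways, being the rows named for the smallest p in each direction. Over the list the groups were apart in 5 of 18 rows (27.8%), 1 of them higher in atrazine, against 11.3% of all rows. The S copy had a log2 difference of -0.37 and a limma adjusted p of 0.693. Homeologs can share reads, and a further cox6b1.S row from 94 to 206 of an unplaced sequence averaged 765 ± 111 FPKM in exposed testes against 698 ± 255 FPKM in unexposed ones (SD, n = 3). The conversion to FPKM in that short row was not examined either. For complex V, partners of ATP6 and ATP8, 2 rows were higher and 13 lower (median -0.072, or -0.025 when scaled to rows off chromosome MT and -0.12 with median-of-ratios scaling). That median was -0.031 without atrazine replicate 3 and -0.029 without control replicate 1. Its most abundant row atp5j.L, a subunit of the peripheral stalk, averaged 295 ± 17.9 FPKM in exposed testes against 331 ± 22.8 FPKM in unexposed ones (SD, n = 3). The row of atp5h.L, another stalk subunit, had a log2 difference of -0.28 and atp5f1.S one of 0.13.

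Of the assembly factors of complexes III, IV and V, 10 rows were higher and 10 lower, around a median of -0.0047 that was 0.041 when scaled to rows off chromosome MT and ran from -0.023 without control replicate 2 to 0.041 without control replicate 1. Their summed FPKM did not overlap between the groups, at 606 to 676 in atrazine and 681 to 799 in control. Without the row cox17.S these sums would overlap. The groups were apart in 2 of the 20 rows (10%), against 11.3% of all rows. Both homeologs of cox17, the copper chaperone that serves the metal centres of complex IV, were on the lower side. The row cox17.S had 119.7, 91.2 and 106 FPKM in atrazine and 153, 212 and 166 FPKM in control. The groups did not overlap, at a log2 difference of -0.73 and a limma adjusted p of 0.693, and cox17.L averaged 128 ± 9.47 FPKM in exposed testes against 159 ± 55.5 FPKM in unexposed ones (SD, n = 3). The factor gene cmc2.S leaned the other way at 0.36.

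Genes that copy mitochondrial DNA into RNA or replicate it had 12 rows on the higher side and 2 on the lower, around a median of 0.11. That median was 0.039 without control replicate 2, 0.068 without atrazine replicate 2, 0.20 without atrazine replicate 3 and 0.23 without control replicate 1. The most abundant was ssbp1.L, the mitochondrial single-strand DNA binding protein, at 52.3 ± 5.26 FPKM in exposed testes against 47.3 ± 6.41 FPKM in unexposed ones (SD, n = 3). The helicase gene c10orf2.L, known as Twinkle, had a log2 difference of 0.37 and rnaseh1.S, an RNase that removes RNA from hybrids, of -0.14. Genes of mitochondrial RNA processing and stability had 13 on the higher side and 3 on the lower, around a median of 0.076, which was 0.050 without control replicate 2 and 0.12 without control replicate 1. The exoribonuclease gene rexo2.L averaged 191 ± 18.1 FPKM in exposed testes against 181 ± 16.9 FPKM in unexposed ones (SD, n = 3), ptcd2.L stood at 0.42 and grsf1.S, which binds mitochondrial RNA, at -0.072. In both lists control replicate 2 had the lowest mean, at -0.25 and -0.27 relative to the average of the 6 libraries, while control replicate 1 stood at 0.13 and 0.065, among or above the atrazine libraries. That same control replicate 2 was lowest for ATP6, ATP8 and COX2, but not for the other members. COX1 and COX3 were lowest in atrazine replicate 2, and CYTB in control replicate 1.

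Of the translation and membrane insertion genes 3 were higher and 3 lower around a median of 0.014, which was -0.035 with median-of-ratios scaling and ran from -0.022 without control replicate 3 to 0.047 without control replicate 1. Here mtif3.L, an initiation factor, averaged 52.1 ± 6.09 FPKM in exposed testes against 56.2 ± 4.53 FPKM in unexposed ones (SD, n = 3). Within that list guf1.L stood at 0.19 and tsfm.L, an elongation factor, at -0.18. Markers of mitochondrial mass had 13 rows on the higher side and 4 on the lower (median 0.061). That median was 0.0019 without atrazine replicate 2, 0.010 and 0.038 without control replicates 2 and 3, 0.15 without control replicate 1 and 0.16 without atrazine replicate 3. Among them the ADP and ATP carrier slc25a5.L averaged 395 ± 50.9 FPKM in exposed testes against 379 ± 62.9 FPKM in unexposed ones, the chaperonin hspd1.S stood at 0.37 and the inner membrane organiser immt.S at -0.39. Regulators of nuclear genes for mitochondria had 7 on the higher side and 2 on the lower (median 0.084, or 0.045 without atrazine replicate 2 and 0.17 without control replicate 1). The transcription factor gene gabpa.L had 53.1, 54.3 and 48.6 FPKM in atrazine and 49.4, 30.9 and 34.3 FPKM in control, a log2 difference of 0.46 (limma adjusted p of 0.693). Its partner gene gabpb1.S stood at -0.40. The summed FPKM of the mass markers was 1381 to 1587 in atrazine and 1365.5 to 1609.7 in control, and these totals overlapped between the groups.

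**Figure D5:**
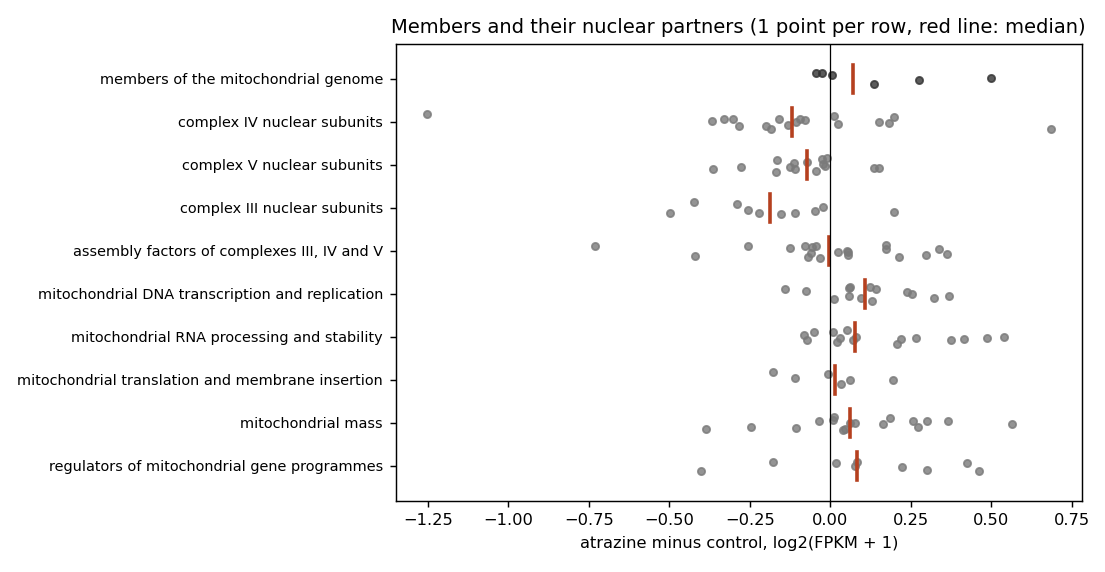
Difference of each tested row, atrazine minus control, on the log2(FPKM + 1) scale, for the members and the 9 lists of nuclear genes, with the median in red. Medians run from -0.19 for complex III subunits to 0.11 for mitochondrial DNA transcription and replication, and no row passed after adjustment.

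Cell types differ in their mitochondria, so marker lists were read beside the members. Matched symbols ran from 4 of 9 for germ cells and meiosis to 8 of 8 for fat body and liver, with 4 of 7 for Leydig cells. Spermatid and sperm markers had a summed level of 842 to 1155 FPKM in atrazine and 1367 to 2396 FPKM in control, with 2 of 12 rows higher, 1 of which was sp1.L, a transcription factor gene at 34.1 ± 2.68 FPKM after exposure against 30.1 ± 2.44 FPKM without it (SD, n = 3). The most abundant of these rows was sp4-c, a sperm nuclear protein gene, at 329 ± 36.03 FPKM in exposed testes against 925 ± 254 FPKM in unexposed ones (SD, n = 3). It was the 1 row of 12 (8.33%) in which the groups did not overlap, against 11.3% of all rows. Without sp4-c the sums of this list would overlap. Leydig markers summed to 130 to 243 FPKM in atrazine and 261 to 282 FPKM in control, with 0 of 4 rows higher. The groups did not overlap in 2 of these 4 rows (50%). Red blood cell markers summed to 149 to 223 FPKM in atrazine and 250.3 to 718 FPKM in control, with 3 of 8 rows higher. Their most abundant row hbg1.L, a hemoglobin gene, had 120, 186 and 128 FPKM in atrazine and 244, 614 and 220 FPKM in control. It was the 1 row of 8 (12.5%) in which the groups did not overlap, and without hbg1.L the sums would overlap. Sertoli markers had 5 of 10 rows higher, germ cell and meiosis markers 2 of 4, muscle 2 of 8, macrophage and immune 3 of 6, kidney tubule 0 of 2 and fat body and liver 3 of 6, with overlapping sums. No row of any of these lists passed in limma, and no list had a row at 0 in all libraries. The part of cell composition in the members' levels was not tested.

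Genes were ranked by Pearson's r over the 6 libraries with the mean profile of the members, their centred mean log2(FPKM + 1). The highest were ints6.L, casc3.L, kctd14.S, wbp2 and naa16.L, with r of 0.986, 0.984, 0.966, 0.964 and 0.960. The ranking covered 8925 rows with a symbol and a mean of at least 1 FPKM, and r is given as a description of these libraries. The members' profile stood at 0.11, -0.024 and 0.12 in atrazine and at -0.079, -0.16 and 0.029 in control, and CYTB, with the widest range, weighed most in it. The single members did not all follow that profile. COX1 was highest in control replicate 1, and COX1 and COX3 were lowest in atrazine replicate 2. The integrator complex gene ints6.L had 15.6, 13.2 and 15.01 FPKM in atrazine and 12.7, 11.3 and 13.8 FPKM in control.

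Circular RNAs, closed rings read through their back-splice junctions, were nearly absent from the mitochondrial genome. Of 68575 circRNA rows 2 lay on it, both within COX1 and both seen in atrazine replicate 2 alone. A ring on the plus strand from 7920 to 8450 had 4 junction reads, and one on the minus strand, antisense to COX1, from 7809 to 8171 had 2. The other 5 libraries had 0 of 37092 to 86265 junction reads there, which at 3 reads allows shares of up to 0.00348% to 0.00809%. The share in atrazine replicate 2 was 0.0115%, with an exact 95% binomial interval of 0.00422% to 0.0251%. The upper bounds of the same exact interval were 0.00428% to 0.00995% in the other libraries, so the intervals overlapped. Neither row reached the 2 reads in 3 libraries needed for testing. Among the 6592 circRNAs tested edgeR called 0 (0%), with 408 at an unadjusted p under 0.05, and DESeq2 also called 0. The lncRNA table held 0 rows on the mitochondrial genome.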

How the data were processed

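Testis libraries of 3 atrazine and 3 control samples were grouped and numbered by their titles. Per the labels' protocols, Trizol RNA was depleted of rRNA and made into libraries with a stranded kit. CASAVA 1.8, Bowtie2 and HISAT2 are named in the submitters' processing notes, with no role. The sources used here do not state quantifier, circRNA caller, strand setting or genome build. The authors deposited FPKM values and a signal headed as counts per mRNA gene, and raw junction counts with log2 normalized values per circRNA, per the file headers. The signal was a whole multiple of 1 step per library in 99.86% or more of values above 0, from which reads were estimated. The tolerance of that check widened with large values. As 3 to 6 values per library lay below 1 step, no count model was run on the signal. Positions were taken from the deposited tables and count from 1. Gene order on the chromosome was taken from the annotation of assembly v10.1.

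Group differences in log2(FPKM + 1) were fitted with limma 3.58.1 under R 4.3.3 (eBayes with a trend), keeping rows that reached 0.5 FPKM in 3 or more libraries. Junction counts were tested with edgeR 4.0.16 (quasi-likelihood, TMM) keeping rows that reached 2 reads in 3 or more libraries, with DESeq2 1.42.0 as an alternative. All tests were two-sided, p-values were adjusted over every tested row of a table by the Benjamini-Hochberg method, and the threshold was 0.05. Shares, ratios and list summaries have no test. A row belonged to a list by its symbol without L or S. All 6 members and all mitochondrial rows are named, and from each list the most abundant row and the row with the smallest p in each direction. Alike genes are the 5 with the highest r. Cell type lists are given mainly as sums. Members and lists were chosen with earlier results of these data known. The scripts were tested on simulated data.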

Additional observations from a re-analysis of the deposited data

How the results depend on the processing

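No member passed in limma under any of the 12 alternatives, nor did a row of the nuclear lists. Among all mRNAs, 1 was called with the deposited signal in place of FPKM, and 0 to 5 with 1 library left out, 5 without control replicate 1 and 1 without atrazine replicate 3. With the replicate number as a block 0 mRNAs and 0 members were called, and 1 circRNA, against 0 without it. Same-numbered libraries deviated with correlations of 0.025, -0.35 and -0.039, and differently numbered ones with -0.36 to 0.42. Deviations from the mean of only 3 libraries offset one another, so these correlations cannot decide whether the numbers pair the samples. ATP6, ATP8 and CYTB stayed higher in atrazine under all 12 alternatives, by 0.15 to 0.39, 0.0033 to 0.28 and 0.37 to 0.75 (log2). COX1 was 0.021 and COX3 0.0034 when scaled to rows off chromosome MT, and COX2 was -0.048 with median-of-ratios scaling. With each library left out in turn COX1 ran from -0.068 to 0.030, COX2 from -0.070 to 0.048, COX3 from -0.090 to 0.033, ND1 from -0.055 to 0.20, ND5 from -0.28 to 0.26 and ND6 from -0.78 to 0.039. The cause of these turns was not tested. The difference of 0.0519 percentage points in the members' share ran from -0.000145 to 0.103 with 1 library left out and was -0.000732 with the deposited signal. With median-of-ratios scaling the median was 0.061 for DNA transcription and replication, 0.025 for RNA processing, 0.0093 for mass and 0.037 for regulators. No circRNA of the mitochondrial genome entered any fit, and 1 circRNA was called elsewhere among the 15093 with a read in 2 or more libraries and 0 to 2 with 1 library left out, 2 without control replicate 1 or 3 and 1 without control replicate 2. Reads were few for CYTB and the rows from ND4L to ND6. For ND6 the coefficient of variation was 50.6% in atrazine and 61.4% in control, above counting errors of 10.4% and 7.92%. That of ND5 was 21.1% in atrazine, with a counting error of 24.5%, and 90.0% in control, with one of 19.5%. The cause of this spread was not tested.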
